A study of Mus musculus with 16 samples.

Results

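The 8 genes Srebf1, Srebf2, Scap, Insig1, Insig2, Stard4, Npc1 and Mylip regulate sterol sensing by the SREBP transcription factors and the uptake and handling of LDL cholesterol. They were chosen by name as listed regulators, with earlier results of these data known. All 8 were present among the 15119 genes of the deposited counts table, and all 8 were among the 14434 genes that passed the filter on low counts. The libraries were made from polyadenylated RNA of the liver of female mice. Wild-type (WT) mice were compared with mice in which Arglu1 was knocked out in hepatocytes (LKO), Arglu1 being a transcriptional coregulator that also acts in RNA splicing. All mice were aged to 9 months on chow, and for the next 12 weeks they either stayed on chow or ate a high-fat diet, TD. 88137 (HFD). The 4 groups were therefore WT on chow, LKO on chow, WT on HFD and LKO on HFD, with 4 libraries in each. The strain, the Cre driver and the genotype of the WT mice beyond that name were not given in the sources used here, and whether the 16 libraries come from 16 different mice is not stated either. All errors and p-values therefore measure the spread between these libraries.

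SREBP1 and SREBP2 are made as precursors held in the membrane of the endoplasmic reticulum. The escort protein SCAP carries them to the Golgi, where proteases release the part that enters the nucleus, and the INSIG proteins hold SCAP and its cargo back when sterols are plentiful. In liver, SREBP1c is best known for driving fatty acid synthesis and SREBP2 for driving cholesterol synthesis and LDL uptake. Oxysterols act through the LXR receptors, which raise transcription of Srebf1 and of Mylip, whose product marks lipoprotein receptors for degradation. LDL cholesterol taken up by the cell leaves the lysosome through NPC1, and STARD4 is a soluble carrier that moves cholesterol between membranes.

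Levels are given as CPM, the estimated count of a gene scaled to an effective library size of 1000000. The total count per library ran from 19142612 to 25120565. Arglu1 was at 39.5 to 45.1 CPM in the 8 WT libraries and at 12.8 to 16.7 CPM in the 8 LKO libraries. The second principal component of all genes, with 13.8% of the variance, set LKO chow libraries 3 and 4 apart from LKO chow libraries 1 and 2, so results on LKO chow are given below also without either pair. The WT chow libraries also spread along it, from -5.63 to 28.3. Summed endothelial markers were at 454 and 380 CPM in LKO chow libraries 1 and 2 and at 195 and 185 CPM in libraries 3 and 4. Summed Kupffer cell and macrophage markers were at 642 and 545 CPM against 148 and 305 CPM. The 7 hepatocyte markers tested summed to between 62232 and 122477 CPM in every library, and 0 of the 7 were at 0 in any library. In WT, the summed hepatocyte markers ran from 89423 to 118358 CPM on chow and from 62232 to 68582 CPM on HFD, and Alb, the albumin gene, was lower on HFD (log2 fold change -0.74, SE 0.113, adjusted p = 0.00179). In LKO the sums ran from 111877 to 122477 CPM on chow and from 82011 to 96728 CPM on HFD, so the diets did not overlap in either genotype, and on HFD every LKO library lay above every WT library. Alb was higher in LKO than in WT on HFD by 0.58 (adjusted p = 0.00143). In that comparison 2 of the 7 hepatocyte markers were called lower. The sums are mostly Alb: in LKO on HFD its mean was 74383 CPM, where the mean sum was 89185 CPM. The 3 collagen genes Col1a1, Col1a2 and Col3a1 rose in WT on HFD, by 1.18, 1.01 and 1.03, and the other 7 of 10 stellate cell and matrix markers did not pass the test. The part of these shifts in the results below was not tested. In liver tissue, fewer cells of a type and less RNA per cell cannot be told apart.

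The promoters of the 8 genes were read from RefSeq (GRCm38.p6) for 6 of them, with 11 start sites in all. The windows run from 250 bases before the start to 50 bases after it. They were searched on both strands for the sterol regulatory element, TCACNCCAC, to which SREBPs bind, for the NF-Y box, CCAAT, for the Sp1 box, with the letters GGGCGG, and for the E-box, with the letters CACGTG. NF-Y and Sp1 are known partners of SREBPs. The sterol element in this spelling was in 0 of the 11 windows, against 1.24% of 32851 promoter windows of mouse genes, and it was in 1 of 17 windows of cholesterol synthesis genes, that of Hmgcs1. The NF-Y box was in 6 of the 11 windows (37.4% of all windows), the Sp1 box in 9 of 11 (35.7%) and the E-box in 3 of 11 (7.15%), that of Insig1 and both of Scap. The Scap windows overlap and hold the same single E-box, and 1 of their Sp1 boxes is shared as well. The stretches below are shown because they put the SREBP genes and their INSIG retention factors beside a synthesis gene that carries the sterol element. Each runs 5′ to 3′ on the strand of its gene, and capitals mark whole matches to any of the 4 motifs on either strand, of which none shown overlaps another. The Srebf1 stretch lies at chr11:60220628-60220787 on the minus strand, before the second of 3 start sites. The Srebf2 stretch lies at chr15:82147019-82147178 on the plus strand, and the Insig1 stretch at chr5:28071162-28071321 on the plus strand. The Insig2 stretch lies at chr1:121332590-121332749 on the minus strand, before the first of 3 start sites, and the Hmgcs1 stretch at chr13:119690101-119690260 on the plus strand.
Srebf1: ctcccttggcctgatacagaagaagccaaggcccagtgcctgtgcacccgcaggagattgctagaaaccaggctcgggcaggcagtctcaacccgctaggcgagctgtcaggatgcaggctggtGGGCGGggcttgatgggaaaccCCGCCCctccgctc
Srebf2: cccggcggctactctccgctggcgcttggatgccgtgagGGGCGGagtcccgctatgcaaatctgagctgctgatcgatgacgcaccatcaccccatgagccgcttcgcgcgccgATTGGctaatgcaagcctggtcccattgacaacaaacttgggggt
Insig1: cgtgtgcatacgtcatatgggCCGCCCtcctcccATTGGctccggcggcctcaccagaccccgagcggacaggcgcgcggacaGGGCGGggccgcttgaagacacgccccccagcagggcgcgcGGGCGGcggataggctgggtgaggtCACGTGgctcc
Insig2: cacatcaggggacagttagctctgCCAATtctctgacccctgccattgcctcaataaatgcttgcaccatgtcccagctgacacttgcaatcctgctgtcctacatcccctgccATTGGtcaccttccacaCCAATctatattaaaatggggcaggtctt
Hmgcs1: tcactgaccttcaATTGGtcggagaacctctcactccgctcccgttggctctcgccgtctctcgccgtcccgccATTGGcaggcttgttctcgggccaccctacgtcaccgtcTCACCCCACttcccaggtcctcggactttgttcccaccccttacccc
In the Hmgcs1 stretch the sterol element begins 137 bases before the start site. The Insig1 stretch holds matches to the Sp1 box, the NF-Y box and the E-box, while the Insig2 stretch holds 3 NF-Y boxes and no Sp1 box. The windows of the other Insig2 start sites do hold an Sp1 box, at -6 and at -128 bases from the start. Likewise, the Srebf1 stretch holds no NF-Y box, but the windows of its other start sites do, at -166 and at -30. The stretches shown therefore do not stand for all promoters of these genes. Which start sites these livers used was not tested. A missing match says only that these letters were not in the window.

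On HFD, Srebf1 rose about 2-fold in both genotypes while Srebf2 fell in both, and Scap and Stard4 fell in WT. The Srebf1 call was lost in 8 of 17 alternative fits in WT and in 9 of 19 in LKO. On chow, LKO livers held less Stard4, Insig1 and Npc1 and more Insig2 than WT livers. Of these chow genotype calls only that of Stard4 held in all 19 alternative fits. The call was lost in 14 of them for Npc1, in 10 for Insig1 and in 6 for Insig2. A gene was called at an adjusted p below 0.05 in edgeR's quasi-likelihood test with Benjamini-Hochberg adjustment over all 14434 genes. In WT, HFD against chow called 4 of the 8 genes (1 higher, 3 lower), where 2.04% of all genes tested were called (0.97% higher, 1.07% lower). In LKO the same comparison called 2 of 8 (1 higher, 1 lower), where 2.22% of all genes were called (1.14% higher, 1.07% lower). Between the genotypes on chow 4 of 8 were called (1 higher and 3 lower in LKO), where 24.7% of all genes were called (12.9% higher, 11.8% lower). Between the genotypes on HFD 0 of 8 were called, where 17.9% of all genes were called (10.3% higher, 7.57% lower), and 1 of the 8 had an unadjusted p below 0.05. DESeq2 and limma voom each called 1 of the 8 there, Srebf1. The interaction of genotype and diet was called for 0 of 8 by edgeR, DESeq2 and limma voom, with 1 gene at an unadjusted p below 0.05 in edgeR, where 0.0208% of all genes were called (0.00693% higher, 0.0139% lower). The median log2 fold change of the 8 genes was -0.28 for HFD against chow in WT, where that of all genes tested was 0.01. It was -0.17 in LKO against 0.00 over all genes. For LKO against WT it was -0.28 on chow, against 0.02 over all genes, and -0.08 on HFD, against -0.01 over all genes. The WT chow libraries enter both the WT diet comparison and the chow genotype comparison, so these share samples.

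**Figure D1:**
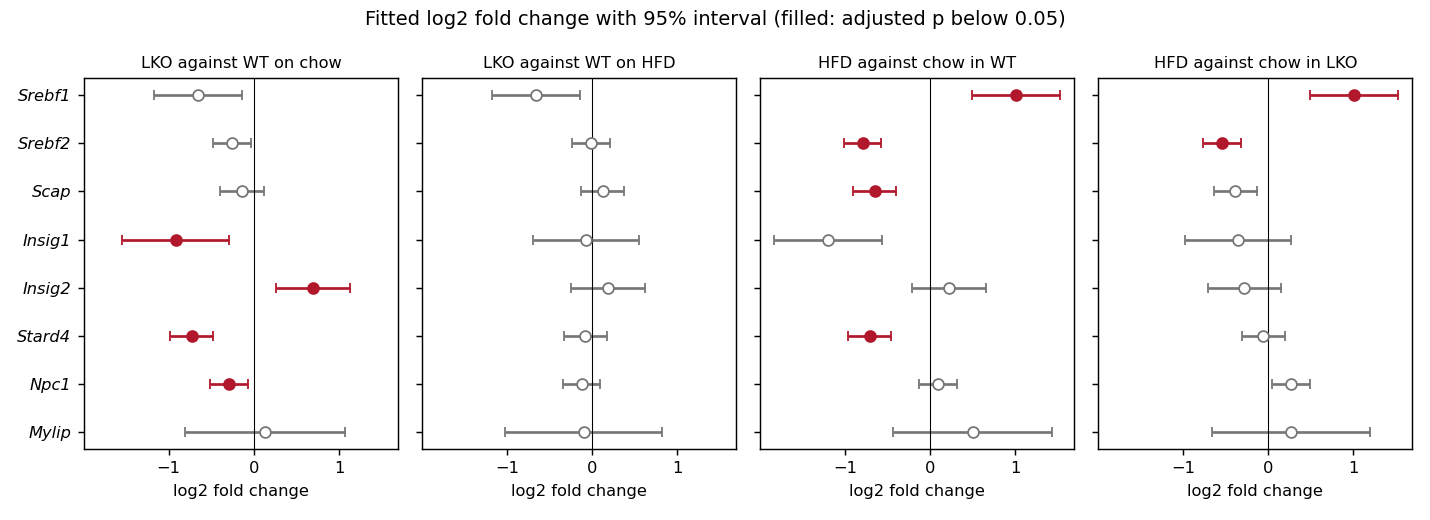
Fitted log2 fold change (x axis) of each of the 8 genes (y axis) in the 4 comparisons, as points with 95% intervals; filled red points have an adjusted p below 0.05. Srebf1 lies near 1 in both diet panels and Srebf2 at -0.79 and -0.55, and no gene is filled in the panel of LKO against WT on HFD.

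Srebf1 (11:60199089-60222581, minus strand, GRCm38) encodes SREBP1, whose isoforms SREBP1a and SREBP1c arise from alternative start sites that counts per gene do not separate. On chow the WT libraries 1 to 4 were at 416, 479, 996 and 947 CPM, and the LKO libraries at 549, 322, 392 and 534 CPM. On HFD the WT libraries were at 1316, 1619, 1292 and 1463 CPM, and the LKO libraries at 1017, 849, 864 and 883 CPM. Every HFD library was above every chow library of its genotype, and on HFD every LKO library was below every WT library, whereas on chow the genotypes overlapped. The rise on HFD was 2.004-fold in WT (log2 1.003, SE 0.244, adjusted p = 0.0443) and 2.01-fold in LKO (log2 1.01, SE 0.244, adjusted p = 0.0397). The genotype difference was the same size on both diets, -0.66 on the log2 scale (SE 0.242), and was not called on chow (adjusted p = 0.0577) or on HFD (adjusted p = 0.0732). On chow it was called in 4 of 19 alternatives, namely in DESeq2 (adjusted p = 0.0198) and in edgeR without WT chow library 1 (-0.85, adjusted p = 0.0105), without WT chow library 2 (-0.80, 0.0244) or without LKO chow library 1 (-0.77, 0.0453). The order of the group means was LKO on chow (449 ± 110.5 CPM), WT on chow (710 ± 304), LKO on HFD (903 ± 77.0) and WT on HFD (1422 ± 151; SD, n = 4 each). WT on chow and LKO on HFD overlapped, since WT chow libraries 3 and 4 lay within the LKO HFD range. The diet calls sat close to the threshold: leaving out any of 6 of the 8 WT libraries ended the WT call and leaving out any of 7 of the 8 LKO libraries ended the LKO call, with fold changes that stayed between 0.82 and 1.21 over all 17 alternatives in WT and between 0.88 and 1.12 over all 19 in LKO. With only LKO chow libraries 3 and 4 kept, the LKO rise was 0.97 (adjusted p = 0.0462), and with only libraries 1 and 2 it was 1.05 (0.187). On HFD the genotype difference was called by DESeq2 (adjusted p = 0.0311), by limma voom (0.0230) and in a fit of the 2 HFD groups alone (0.000561). The interaction estimate was 0.00 (95% interval -0.72 to 0.73).

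Srebf2 (15:82147181-82205379, plus strand) encodes SREBP2, the form that drives cholesterol synthesis. On chow the WT libraries were at 129, 89.8, 114 and 100.2 CPM and the LKO libraries at 90.9, 101, 91.5 and 77.6 CPM. On HFD the WT libraries were at 62.3, 61.8, 64.3 and 61.2 CPM and the LKO libraries at 66.2, 58.8, 64.1 and 58.5 CPM. All 8 HFD libraries lay below all 8 chow libraries, and the HFD libraries of the 2 genotypes overlapped. Srebf2 fell by 0.79 (log2) in WT (SE 0.105, adjusted p = 0.000427) and by 0.55 in LKO (SE 0.105, adjusted p = 0.0105). These calls held in all 17 alternatives run for WT and all 19 run for LKO. Without LKO chow libraries 1 and 2 the LKO change was -0.45, and without libraries 3 and 4 it was -0.64. On chow the LKO mean was 90.3 ± 9.70 CPM against 108 ± 17.1 CPM in WT, a difference of -0.26 that was not called (adjusted p = 0.0797), but was called at -0.36 without LKO chow libraries 1 and 2 (0.0314). The spread between libraries was smallest in WT on HFD, where the coefficient of variation was 2.17%, against 15.8% in WT on chow. On the log2 scale the intervals of the 2 diet changes overlapped, and the interaction was 0.25 (SE 0.148, adjusted p = 0.639).

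**Figure D2:**
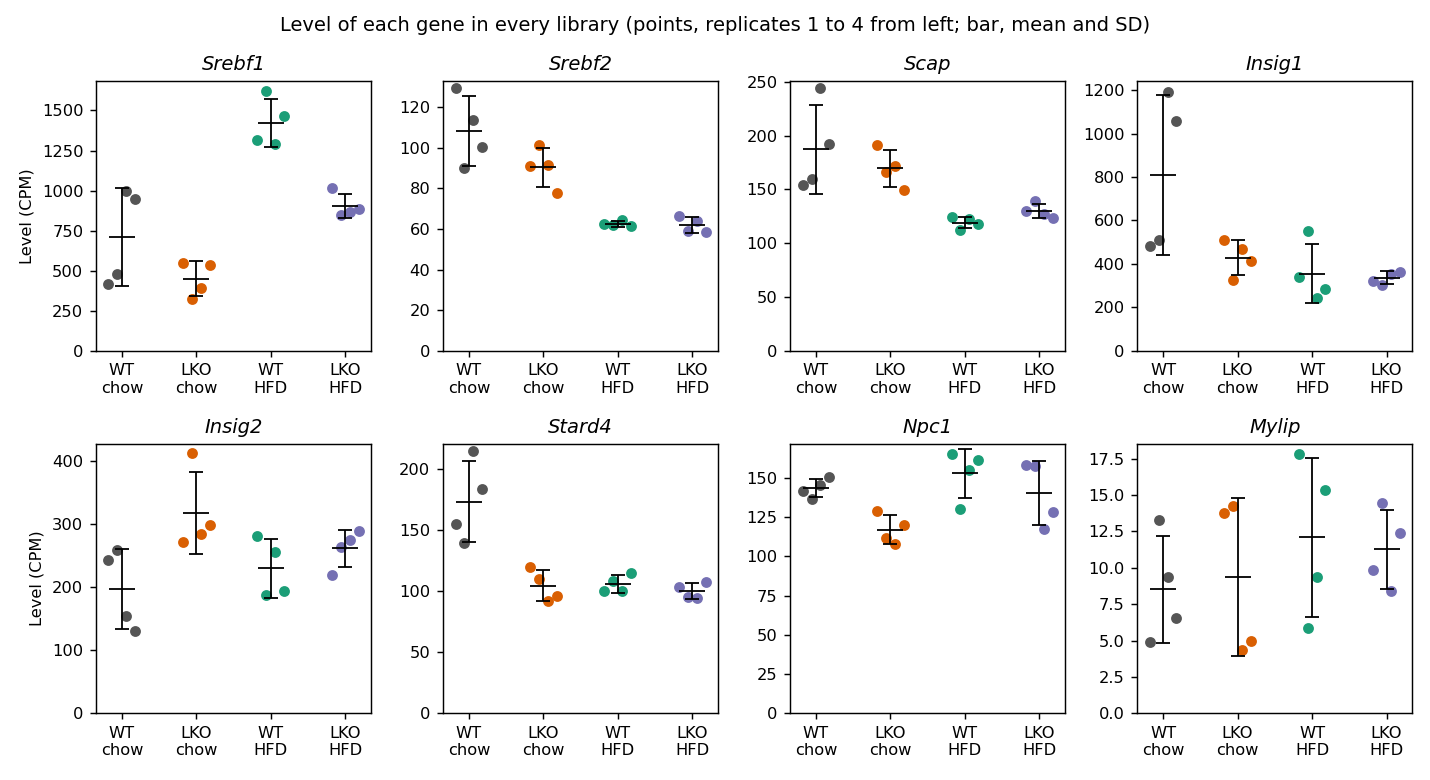
CPM of each of the 8 genes (y axis, from 0) in the 4 groups (x axis); points are the libraries, replicates 1 to 4 from left to right, and bars are the mean and SD. Srebf1 is highest in WT on HFD, Srebf2 is below 67 CPM in all HFD libraries, and WT chow libraries 3 and 4 stand high for Srebf1 and Insig1 and low for Insig2.

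Scap (9:110333288-110384950, plus strand) encodes the sterol-sensing escort of both SREBPs. The WT chow libraries were at 154, 159.6, 244 and 192 CPM and the WT HFD libraries at 125, 112, 122 and 118 CPM. The LKO chow libraries were at 192, 166, 172 and 149 CPM and the LKO HFD libraries at 129.8, 139, 127 and 123 CPM. Chow and HFD libraries did not overlap in either genotype, while the genotypes overlapped on both diets. Scap fell by 0.65 (log2) in WT (SE 0.122, adjusted p = 0.00761), a call that held in all 17 alternatives. In LKO the change was -0.39 (SE 0.121) and was not called (adjusted p = 0.105), although limma voom called it (adjusted p = 0.0406). The difference between these diet changes, the interaction, was 0.27 (SE 0.172, adjusted p = 0.651). Of the 8 genes, 4 had chow and HFD libraries that did not overlap in WT (9.51% of all genes did so) and 3 in LKO (10.2% of all genes).

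Insig1 (5:28071363-28078662, plus strand) encodes a retention protein of the endoplasmic reticulum and is itself a known SREBP target. On chow the WT libraries were at 481, 511, 1193 and 1056 CPM and the LKO libraries at 509, 328, 468 and 412 CPM. On HFD the WT libraries were at 340.0, 549, 241 and 285 CPM and the LKO libraries at 320.4, 303, 355 and 365 CPM. WT chow libraries 3 and 4 stood above all others, and LKO chow library 1 lay above WT chow library 1, so the chow groups overlapped. Insig1 was lower in LKO than in WT on chow (log2 fold change -0.92, SE 0.295, adjusted p = 0.0337). The call depended on single libraries: without WT chow library 3 the difference was -0.67 (adjusted p = 0.122), without WT chow library 4 it was -0.76 (0.0947), and leaving out LKO chow library 2, 3 or 4 ended it as well. Without LKO chow libraries 1 and 2 it was -0.88 (adjusted p = 0.110), and without libraries 3 and 4 it was -0.95 (0.151). HFD against chow in WT gave -1.20 (SE 0.296), just short of a call (adjusted p = 0.0521); DESeq2 gave an adjusted p of 0.00104 and limma voom 0.0247. In LKO the diet difference was -0.35 (SE 0.293, adjusted p = 0.569). The group means ran from 336 ± 29.0 CPM in LKO on HFD through 354 ± 136 in WT on HFD and 429 ± 78.5 in LKO on chow to 811 ± 368 in WT on chow, and each overlapped its neighbour in this order.

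Insig2 (1:121304353-121332589, minus strand) encodes the second retention protein, which liver is known to raise in fasting from a liver-specific transcript. The WT chow libraries were at 243, 260.0, 154 and 132 CPM and the LKO chow libraries at 272, 414, 284 and 299.7 CPM. The WT HFD libraries were at 282, 187, 256 and 195 CPM and the LKO HFD libraries at 219.9, 263, 274 and 289 CPM. On chow every LKO library was above every WT library, and on HFD the genotypes overlapped. Insig2 was higher in LKO on chow (log2 fold change 0.69, SE 0.205, adjusted p = 0.0214). It was called in 13 of 19 alternatives. Leaving out WT chow library 3 gave 0.59 (adjusted p = 0.0726), WT chow library 4 gave 0.53 (0.0633) and LKO chow library 2 gave 0.53 (0.0688). Without LKO chow libraries 1 and 2 it was 0.56 (adjusted p = 0.0921), and without libraries 3 and 4 it was 0.80 (0.0550). The mean of 317 ± 65.1 CPM in LKO on chow compared with 197 ± 63.6 in WT on chow, 230.2 ± 46.3 in WT on HFD and 262 ± 29.7 in LKO on HFD, and no diet difference was called. Between the genotypes on chow, 3 of the 8 genes (Insig2, Stard4 and Npc1) had libraries that did not overlap, as did 21.4% of all genes. On HFD it was 1 of 8, Srebf1, and 27.8% of all genes.

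Inside the groups, libraries high for Srebf1 tended to be high for Insig1 and low for Insig2. The libraries' log2 CPM were centred on their group means, so that differences between groups did not enter, and 28 pairs of the 8 genes were compared over 16 libraries by permutation within groups. The strongest relation was that of Srebf1 with Insig2, with Pearson's r = -0.87 (permutation p = 0.00179, adjusted over the 28 pairs p = 0.0501) and Spearman's rho = -0.86 (permutation p = 0.00375, adjusted p = 0.105). Without WT chow libraries 1 and 3, the farthest from the median, r was -0.87. Srebf1 and Insig1 gave r = 0.82 (permutation p = 0.00998, adjusted p = 0.140) and rho = 0.75 (permutation p = 0.0313, adjusted p = 0.269), and r = 0.71 without the same libraries. Insig1 and Insig2 gave r = -0.76 (permutation p = 0.0361, adjusted p = 0.253) and rho = -0.74 (permutation p = 0.0384, adjusted p = 0.269), and r = -0.73 without WT HFD library 2 and WT chow library 3. None of the 28 pairs passed the adjusted threshold of 0.05.

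**Figure D3:**
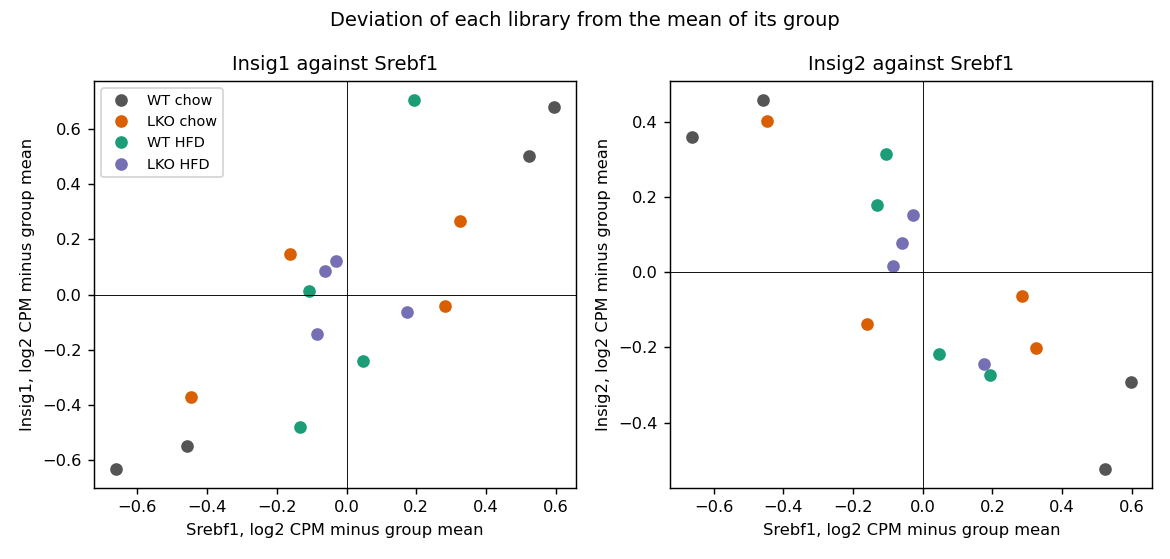
Deviation of each library from its group mean in log2 CPM, with Srebf1 on the x axis and Insig1 (left) or Insig2 (right) on the y axis; colours mark the 4 groups. Points rise from lower left to upper right for Insig1 (r = 0.82) and fall from upper left to lower right for Insig2 (r = -0.87), with WT chow libraries at both ends.

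Stard4 (18:33199355-33213862, minus strand) encodes a cytosolic sterol carrier and is a known SREBP2 target. The WT chow libraries were at 155, 139.6, 214 and 183 CPM. The other 12 libraries were all lower, at 119, 110.0, 91.7 and 96.1 CPM in LKO on chow, at 99.8, 108, 99.8 and 115 CPM in WT on HFD, and at 103, 95.3, 94.1 and 108 CPM in LKO on HFD. WT on chow thus stood alone above the 3 other groups, which overlapped one another. On chow Stard4 was lower in LKO (log2 fold change -0.73, SE 0.120, adjusted p = 0.000277), and in WT it fell by 0.71 on HFD (SE 0.120, adjusted p = 0.00381). Both calls held in every alternative run, 19 for the first and 17 for the second, and without LKO chow libraries 1 and 2 or 3 and 4 the chow difference was -0.88 or -0.59. Within LKO the diet difference was -0.06 (SE 0.120, 95% interval -0.31 to 0.19, adjusted p = 0.835), and between the genotypes on HFD it was -0.08 (SE 0.120, adjusted p = 0.722). The interaction was 0.65 (SE 0.170), with an unadjusted p of 0.00128 and an adjusted p of 0.390. Without LKO chow libraries 1 and 2 it was 0.80 and called (adjusted p = 0.0121), and without libraries 3 and 4 it was 0.51 (adjusted p = 0.623). The group means were 104 ± 12.7 in LKO on chow, 106 ± 7.34 in WT on HFD and 100.03 ± 6.40 in LKO on HFD, against 173 ± 33.0 in WT on chow.

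Npc1 (18:12189692-12236400, minus strand) encodes the lysosomal membrane protein that passes LDL cholesterol on to the rest of the cell. On chow the WT libraries were at 142, 136, 145 and 150.2 CPM and the LKO libraries at 129, 111, 108 and 119.7 CPM. On HFD the WT libraries were at 165, 129.9, 155 and 161 CPM and the LKO libraries at 158, 157, 118 and 129 CPM. The chow genotypes did not overlap, and on HFD they did. Npc1 was lower in LKO on chow (log2 fold change -0.29, SE 0.105), a call at the threshold (adjusted p = 0.0495) that was lost in 14 of 19 alternatives. Leaving out any WT chow library ended it, as did leaving out LKO chow library 2, 3 or 4, while its value stayed between -0.34 and -0.25. Without LKO chow libraries 1 and 2 it was -0.34 (adjusted p = 0.0496), and without libraries 3 and 4 it was -0.26 (0.199). HFD against chow in LKO gave 0.26 (SE 0.105, adjusted p = 0.196), and in WT 0.09 (SE 0.105, adjusted p = 0.760).

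Mylip (13:45389742-45412022, plus strand) encodes the ubiquitin ligase IDOL, which marks lipoprotein receptors for degradation. It had the lowest level per length of the 8 genes in every group, and its estimated counts ran from 93.9 to 371 per library. On chow the WT libraries were at 4.91, 13.3, 9.36 and 6.57 CPM and the LKO libraries at 13.8, 14.3, 4.37 and 4.94 CPM. On HFD the WT libraries were at 17.8, 5.85, 9.36 and 15.4 CPM and the LKO libraries at 9.81, 14.4, 8.40 and 12.4 CPM. All 4 groups overlapped, and the coefficient of variation within groups ran from 23.9% to 58.0%. No comparison was called. The WT diet difference of 0.50 had a 95% interval from -0.44 to 1.43, so at this spread its direction was not settled. In LKO on chow, libraries 1 and 2 (13.8 and 14.3 CPM) lay far above libraries 3 and 4 (4.37 and 4.94 CPM). Without libraries 1 and 2 the chow genotype difference was -0.88, and without libraries 3 and 4 it was 0.71, neither called.

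The libraries with more Mylip were those with more endothelial RNA. The summed level of 8 endothelial markers (Pecam1, Cdh5, Stab2, Lyve1, Clec4g, Kdr, Eng and Vwf, of which 0 were at 0 in any library) ran from 190 to 409 CPM in WT on chow, from 185 to 454 in LKO on chow, from 202 to 477 in WT on HFD and from 216 to 323 in LKO on HFD. On group-centred log2 values Mylip followed this sum over the 16 libraries with r = 0.98 (permutation p = 3.0e-05, adjusted over 48 relations p = 0.00144) and rho = 0.98 (permutation p = 7.0e-05, adjusted p = 0.00336), and with r = 0.98 without the 2 libraries farthest from the median. It followed the summed Kupffer cell and macrophage markers with r = 0.84 (permutation p = 0.000300, adjusted p = 0.00720) and rho = 0.91 (permutation p = 0.000190, adjusted p = 0.00456), and with r = 0.82 without the 2 farthest libraries. These were 2 of 48 relations of the 8 genes with 6 marker sums, a comparison chosen after the values were seen, and the other 46 did not pass. Srebf1, for example, gave r = -0.12 with the endothelial sum (permutation p = 0.716, adjusted p = 0.850; rho = -0.12, permutation p = 0.721, adjusted p = 0.836), and r = -0.19 without the 2 farthest libraries. Mylip with the summed stellate cell and matrix markers came nearest to passing, with r = 0.77 (permutation p = 0.00547, adjusted p = 0.0875). Its rho was 0.76 (permutation p = 0.00674, adjusted p = 0.108), and r was 0.80 without the 2 farthest libraries. The part of endothelial, macrophage or stellate cell content in the Mylip values was not tested further.

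**Figure D4:**
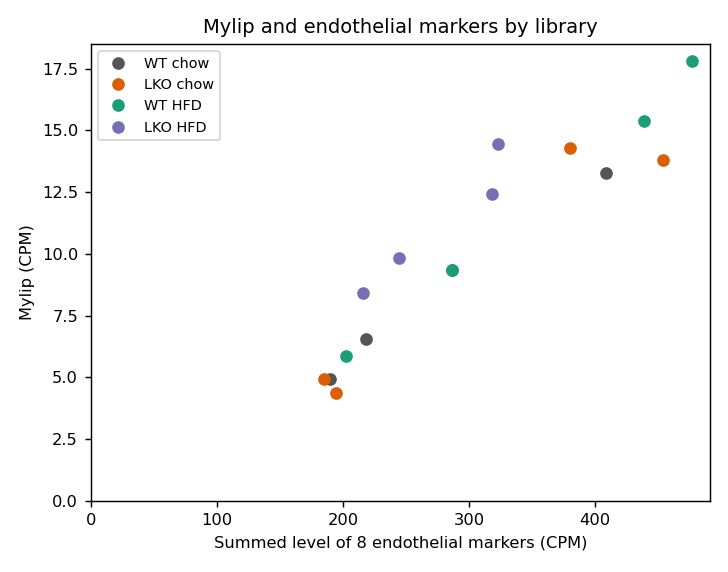
Mylip (y axis, CPM) against the summed level of 8 endothelial markers (x axis, CPM) in the 16 libraries, coloured by group; both axes start at 0. Libraries of all 4 groups lie along the same rising band, from 4.37 CPM in LKO chow library 3 to 17.8 CPM in WT HFD library 1.

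Scaled by exon length (CPM per kb, GENCODE M21), Insig1 and Srebf1 were the most abundant of the 8 transcripts in 3 of the 4 groups. In WT on chow Insig1 was at 262 ± 119 CPM per kb and Srebf1 at 126 ± 54.0, followed by Insig2 at 56.8 ± 18.3, Stard4 at 30.9 ± 5.90, Scap at 25.2 ± 5.57, Srebf2 at 15.1 ± 2.38, Npc1 at 12.7 ± 0.522 and Mylip at 2.64 ± 1.13 (SD, n = 4). In WT on HFD Srebf1 stood first at 252 ± 26.8 CPM per kb and Insig1 second at 114 ± 44.1, and Srebf2 was at 8.69 ± 0.189. Srebf1 also led in LKO on HFD, at 160.3 ± 13.7 CPM per kb, with Insig1 at 109 ± 9.39, whereas in LKO on chow Insig1 was at 139 ± 25.4, Insig2 at 91.4 ± 18.8 and Srebf1 at 79.7 ± 19.6.

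Genes around the 8 were followed from lists by role. Their counts stand beside 24.7% of all genes called for the genotype on chow and 17.9% for the genotype on HFD. For the diet the shares were 2.04% in WT and 2.22% in LKO, and for the interaction 0.0208%. These shares are those of the reported fit. Counts by other tools or with libraries left out come from other fits, whose shares of all genes are not given here. They show only how far the reported counts move, and the fits without a pair of LKO chow libraries were chosen after the data were seen. Of 17 tested genes of SREBP processing and turnover, 2 were higher and 5 lower in LKO on chow, 1 was higher and 2 lower in LKO on HFD, 1 rose on HFD in WT and 0 were called in LKO by edgeR (4 at an unadjusted p below 0.05; 1 by DESeq2 and 4 by limma voom). The medians of the list were -0.14, 0.07, -0.14 and 0.08 on the log2 scale, where those of all genes were 0.02, -0.01, 0.01 and 0.00. Sec24a, a coat protein of the vesicles that carry SCAP to the Golgi, was lower in LKO on chow by -0.42 (SE 0.0834, adjusted p = 0.00144). Rnf145, a sterol-responsive ubiquitin ligase known to act on SCAP, was higher in LKO on chow by 0.44 (adjusted p = 0.00705), rose by 0.70 on HFD in WT (SE 0.110, adjusted p = 0.00195), and was lower in LKO on HFD by -0.33 (adjusted p = 0.0445), the last call being lost in 6 of 17 alternatives. Dropping LKO chow libraries 1 and 2 made the chow genotype counts of the list 1 higher and 8 lower, and dropping libraries 3 and 4 made them 2 and 2. Leaving out single libraries gave 3 (without WT chow library 4) to 8 (without LKO chow library 2) genes called on chow, and 1 (without WT HFD library 4) to 4 (without WT chow library 3) on HFD. Without libraries 1 and 2 the LKO diet count of 0 became 5 higher and 2 lower, and the interaction count of 0 became 6 higher and 1 lower.

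The route by which LDL enters the cell held 15 tested genes. On chow 1 was higher and 5 were lower in LKO, and on HFD 1 was higher and 2 were lower. The diet lowered 1 in WT and 1 in LKO, and the 4 medians of the list were -0.16, -0.13, -0.03 and -0.09. Sort1, the sorting receptor sortilin, was the member that was higher in LKO, by 2.44 on chow (SE 0.274, adjusted p = 8.8e-06) and by 2.14 on HFD (SE 0.270, adjusted p = 3.8e-05). Vps35, a retromer subunit that returns receptors to the surface, was lower by -0.65 on chow (adjusted p = 0.000862) and by -0.39 on HFD (adjusted p = 0.0329; lost in 7 of 17 alternatives). Lrpap1, a chaperone of lipoprotein receptors, fell by 0.61 on HFD in LKO (SE 0.138, adjusted p = 0.0285), a call lost in 7 of 19 alternatives. The chow genotype counts without LKO chow libraries 1 and 2 were 2 higher and 6 lower, and without libraries 3 and 4 they were 1 and 2. Single libraries left out gave 3 (without WT chow library 3) to 7 (without LKO chow library 2) on chow, 1 (without WT HFD library 3) to 3 on HFD, and 0 to 2 for the diet in each genotype. For the diet in LKO, 4 were higher and 1 lower without libraries 1 and 2, and 0 were called without libraries 3 and 4.

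Among 21 tested genes of intracellular sterol transport and esterification, 2 were higher and 2 lower in LKO on each diet, 1 rose on HFD in WT and 2 rose in LKO. The 4 genes called between the genotypes on each diet are 19.05% of the list, where 24.7% and 17.9% of all genes were called. The medians of the list were 0.03, 0.09, -0.00 and 0.11. Gramd1b, which encodes a carrier that moves plasma membrane cholesterol to the endoplasmic reticulum, was at 3.74 ± 1.15 CPM in WT on chow and 14.2 ± 0.775 in LKO on chow. It was higher in LKO by 1.91 on chow (SE 0.164, adjusted p = 2.5e-07) and by 0.83 on HFD (SE 0.149, adjusted p = 0.000702), and it rose on HFD by 1.86 in WT (SE 0.164, adjusted p = 6.6e-06) and by 0.78 in LKO (SE 0.149, adjusted p = 0.00991). Soat2, which encodes the cholesterol-esterifying enzyme of hepatocytes, was lower in LKO by -0.89 on chow (SE 0.151, adjusted p = 0.000352) and by -1.12 on HFD (SE 0.152, adjusted p = 5.6e-05). Npc2, the soluble partner of NPC1 in the lysosome, was higher in LKO on HFD by 0.41 (SE 0.0886, adjusted p = 0.00349). The LKO diet counts without LKO chow libraries 1 and 2 were 6 higher and 3 lower, and without libraries 3 and 4 they were 0 and 0, while single libraries left out gave 1 (without LKO chow library 3) to 5 (without LKO chow library 2). The chow genotype counts without those pairs were 4 and 4, and 1 and 2.

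Genes of cholesterol synthesis that are known SREBP2 targets fell with Srebf2 on the diet. Of the 19 tested, 12 fell on HFD in WT and 0 rose, with a list median of -1.48 and values from -3.23 to -0.44, and in LKO 10 fell and 0 rose, with a median of -1.14 and values from -2.39 to 0.08. Idi1, an isomerase of the isoprenoid steps, fell by 2.46 in WT (SE 0.234, adjusted p = 2.7e-05) and by 1.59 in LKO (SE 0.227, adjusted p = 0.00226). Msmo1, a sterol oxidase, fell by 2.08 and by 1.46 (adjusted p = 7.9e-05 and 0.00275), and Fdft1, squalene synthase, by 1.48 and by 1.27 (adjusted p = 0.000237 and 0.00180). Between the genotypes 0 were higher and 3 lower in LKO on chow (Ebp and Hsd17b7 among them, list median -0.31, the calls of these being lost in 4 and 13 of 19 alternatives) and 0 were called on HFD by edgeR (median 0.03; 3 at an unadjusted p below 0.05, 0 by DESeq2 and 2 by limma voom). The LKO diet count was 12 without LKO chow libraries 1 and 2 and 5 without libraries 3 and 4, and leaving out single libraries gave 6 (without LKO HFD library 1) to 11 in LKO and 9 (without WT chow library 3) to 16 in WT. On chow only 1 gene was called, lower in LKO, without either pair. The interaction was called for 0 of the 19 by edgeR, DESeq2 and limma voom, with 2 at an unadjusted p below 0.05, and for 1 without LKO chow libraries 1 and 2.

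For the diet, 0 of 19 known SREBP1c targets of fatty acid synthesis were called by edgeR in either genotype. Of all genes, 2.04% were called in WT and 2.22% in LKO. At those shares a count of 0 in a list of 19 does not set these targets apart from other genes. In WT the list median was -0.12 with values from -1.21 to 0.73, 2 genes had an unadjusted p below 0.05, and DESeq2 and limma voom each called 1. In LKO the median was 0.10 with values from -1.12 to 1.02, 3 genes had an unadjusted p below 0.05, DESeq2 called 0 and limma voom 2. Between the genotypes 1 was lower in LKO on chow and 2 on HFD, with list medians of -0.88 and -0.66. Me1, the malic enzyme that supplies NADPH, was lower in LKO by -1.48 on chow (SE 0.403, adjusted p = 0.0154) and by -1.24 on HFD (SE 0.401, adjusted p = 0.0458), and Elovl5, an elongase, was lower on HFD by -0.66 (SE 0.204, adjusted p = 0.0324). The calls on HFD were each lost in 7 of 17 alternatives. Leaving out single libraries gave 0 (without WT chow library 3) to 5 (without WT chow library 1) genes called on chow, leaving out LKO chow libraries 1 and 2 gave 1 higher and 0 lower, and leaving out 3 and 4 gave 0. For LKO against WT on HFD single libraries gave 0 (without WT HFD library 3) to 3 (without WT chow library 1). Fasn, fatty acid synthase, chosen after its values were seen, ran from 810 to 5376 CPM in WT on chow and from 1480 to 6275 CPM in WT on HFD. Its highest libraries were WT chow library 3 and WT HFD library 2, which were also the highest of their groups for Srebf1 and Insig1. The Me1 call on chow was lost without LKO chow libraries 1 and 2 (adjusted p = 0.0757), without libraries 3 and 4 (0.101), without WT chow library 3 (0.0542) and in limma voom (0.0790).

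**Figure D5:**
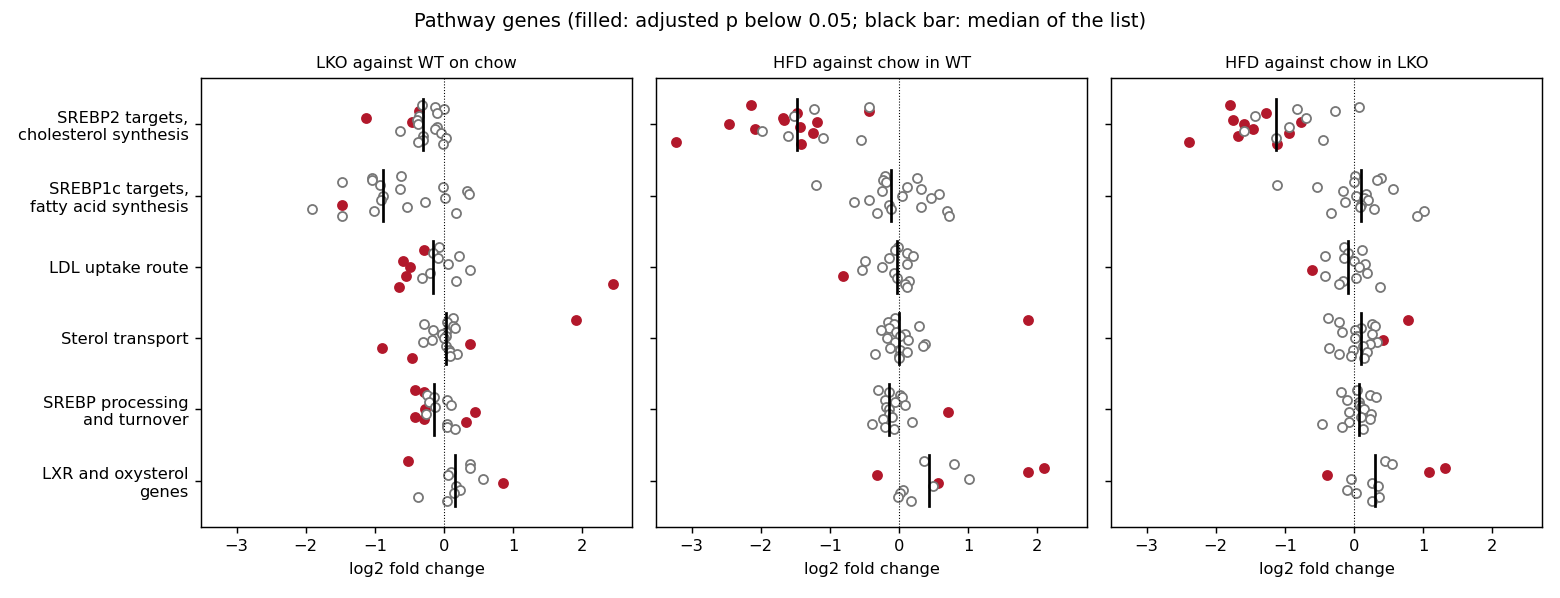
Log2 fold change (x axis) of each tested gene of 6 pathway lists (y axis) for the genotype on chow and for the diet in each genotype; filled red points have an adjusted p below 0.05, and black bars are list medians. The SREBP2 targets lie to the left in both diet panels, with medians of -1.48 and -1.14, while the medians of the SREBP1c targets are at -0.12 and 0.10.

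Of 12 tested LXR and oxysterol genes, 3 rose and 1 fell on HFD in WT, and 2 rose and 1 fell in LKO, with list medians of 0.43 and 0.30. Abcg5 and Abcg8, the LXR-driven pair of sterol exporters, rose by 2.09 and 1.87 in WT (SE 0.176 and 0.156, both adjusted p = 5.4e-06) and by 1.32 and 1.09 in LKO (adjusted p = 0.00114 and 0.00180). Abcg8 was also lower in LKO than in WT on HFD, by -0.68 (SE 0.151, adjusted p = 0.00390). Cyp7b1, which hydroxylates oxysterols, was higher in LKO by 0.86 on chow (adjusted p = 1.0e-05) and by 0.56 on HFD (adjusted p = 0.000699). On chow 1 gene was higher and 1 lower in LKO, and on HFD likewise, with medians of 0.16 and 0.01. Dropping LKO chow libraries 1 and 2 made the chow counts 3 and 2, and dropping 3 and 4 made them 2 and 0, with 1 (without WT chow library 3) to 4 (without WT chow library 2) called when single libraries were left out. For the diet in LKO the counts without LKO chow libraries 1 and 2 were 6 higher and 1 lower, and without libraries 3 and 4 they were 2 and 0. Of 15 genes of the insulin and nutrient inputs to SREBP1c, 2 were lower in LKO on chow, Akt1 by -0.44 (adjusted p = 0.00969) and Akt2 by -0.32 (adjusted p = 0.00762), both kinases of the insulin signal. The other comparisons of that list each called 0 by edgeR, with 1 to 3 genes at an unadjusted p below 0.05, 0 or 1 by DESeq2 and 0 to 3 by limma voom. On chow 6 genes were lower without LKO chow libraries 1 and 2, and without libraries 3 and 4 it was 0. The 0 calls of that list became 5 higher for the diet in LKO, 4 higher for the interaction and 1 lower for LKO against WT on HFD without LKO chow libraries 1 and 2, and the diet and interaction counts were 0 without libraries 3 and 4. Single libraries left out gave up to 4 on chow (without LKO chow library 1). The interaction count of 0 became 3 higher in the LDL route, 2 higher and 2 lower in the sterol transport list, and 1 higher and 2 lower in the LXR list without LKO chow libraries 1 and 2.

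For each of the 8 genes, the most similar genes of all 14434 in log2 CPM over the 16 libraries were listed by Pearson's r, as a description in which differences between the groups enter. Among the genes most like Insig1 were Acsl3 (r = 0.91) and Syne2 (0.88). Srebf2 was most like Hsd17b7 (0.91), Idi1 (0.91) and Rdh16f2 (0.90), the first 2 of them genes of cholesterol synthesis, but within groups these values were 0.36, 0.29 and 0.42. Insig2 was most like Nlrp12 (0.96), E2f8 (0.89) and Slc25a30 (0.89), with 0.95, 0.92 and 0.88 within groups. Srebf1 was most like Tmem63b (0.90), Slc2a4 (0.89) and Rere (0.89), and Scap most like Afm (0.92), Eif2ak4 (0.91) and Abtb2 (0.89). Stard4 was most like Sdc2 (0.93), Slc38a2 (0.93) and Chic1 (0.91), and Npc1 most like Jade1 (0.91), Mfsd4b1 (0.90) and Hectd3 (0.88). Mylip was most like Hgf, Prkch and Dse, with r from 0.97 to 0.98.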

How the data were processed

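Per the labels' protocols, TRIzol RNA went through poly(A) selection and the NEBNext Ultra II kit, and was read on a NovaSeq as pairs of 150 bases. The submitters' processing notes name mm10, Bowtie2 and DESeq2. The counting tool and annotation are not given in the sources used here. The authors deposited an estimated count per gene symbol and library (an expected count, 51.1% of values being whole to 1e-06), without normalisation per the file headers, and these were rounded here. A second deposited table of the same counts, whose chow columns sit a row too low, served as an alternative after they were moved up.

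All 16 libraries were fitted with edgeR 4.0.16 (R 4.3.3): TMM sizes, filterByExpr on the 4 groups, robust quasi-likelihood fits with 1 mean per group, Benjamini-Hochberg adjustment over 14434 genes, 2-sided, called below 0.05. The depth gives the 8 genes 93.9 or more counts in each library. The libraries were not treated as paired by replicate number. Among 24 pairings of same-numbered libraries, the correlations of deviations ran from -0.28 to 0.32 (median -0.018), and 5 were above 0.1. These values cannot exclude a batch shared by some of the libraries. No 2 libraries of a group agreed within sampling noise (chi-square per degree of freedom from 8.04 upwards). On simulated counts with 200 genes changed 2-fold, 66% to 71.5% of the changed genes were called in the 4 comparisons of 2 groups, with 6 to 13 false calls.

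The 8 genes, the gene lists and the tests were chosen with earlier results of these data known. Named were the 8 genes, Arglu1, up to 4 called genes with the lowest p from each list and comparison, and the 3 genes most like each of the 8. Marker lists gave these counts of called genes, higher and lower, in this order: LKO against WT on chow, LKO against WT on HFD, the diet in WT, the diet in LKO. Of 7 hepatocyte markers these were 0 and 2, 1 and 2, 0 and 2, and 0 and 0. Of 12 Kupffer cell and macrophage markers they were 0 and 0, 0 and 0, 1 and 0, and 1 and 0. Of 10 lymphocyte markers they were 0 and 1 on chow and 0 in the rest. Of 8 endothelial markers 1 (Vwf) was lower in LKO than in WT on HFD, and 0 were called in the rest. Of 10 stellate cell and matrix markers 3 were higher in the WT diet comparison and 0 were called in the rest. Of 6 bile duct markers 1 was higher in LKO on each diet and 0 were called for the diet. Symbols were matched to GENCODE M21 (GRCm38) for 13925 of the 14434 genes. Of the listed genes, Ch25h, Klrb1c and Cftr were absent from the counts table, with 0 to 9 counts in the second table, and Tf, Mesdc2 and 2410131K14Rik were not analysed here. Alternatives numbered 27, with DESeq2 1.42.0, limma 3.58.1 voom, other scaling and filters, fewer libraries and a replicate block, of which 2 (leaving out pairs of LKO chow libraries) were chosen after seeing the data. Some genes that these rules would name are not reported here.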

Additional observations from a re-analysis of the deposited data

How the results depend on the processing

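Of 27 alternatives, 25 were planned and 2 were added after seeing the data. The count of the 8 genes called for LKO against WT on chow, 4 in the reported fit, was 6 with DESeq2, 2 with limma voom, 1 with only the 2 groups compared, 1 without LKO chow libraries 3 and 4, and 1 to 5 leaving out single libraries. On HFD the count of 0 became 1 with DESeq2, with limma voom and with only the 2 groups compared. For the diet in LKO the count of 2 became 3 with limma voom, 1 without LKO chow libraries 3 and 4, and 1 to 2 leaving out single LKO libraries. The interaction count of 0 became 1 without LKO chow libraries 1 and 2, and the fit of only 2 groups was not run for it. In WT the diet count stayed within 3 to 5. With the replicate number as a block, the chow genotype count was 2 and the LKO diet count 1. The block ended the calls of Srebf1 for the diet in WT (1.05, adjusted p = 0.0555) and in LKO (1.03, 0.0572), and those of Insig1 (0.0756) and Npc1 (0.0542) on chow, where the libraries share only a number. The cause of these shifts was not tested.

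Log2 fold changes that turned direction were all uncalled. For Arglu1 the LKO diet value became -0.038 without LKO chow libraries 3 and 4. The Arglu1 interaction became -0.013 with upper-quartile scaling and -0.073 without libraries 3 and 4, and ran from -0.013 to 0.11 leaving out single libraries. For Insig1 on HFD, LKO against WT became 0.12 with limma voom and ran from -0.22 to 0.22 leaving out single libraries. For Mylip the LKO diet value became -0.31 without LKO chow libraries 3 and 4, and the chow genotype value -0.31 with limma voom and -0.88 without libraries 1 and 2. Leaving out single libraries, the Mylip genotype values ran from -0.15 to 0.44 on chow and from -0.33 to 0.14 on HFD. The Mylip interaction became 0.30 with limma voom and 0.78 without LKO chow libraries 1 and 2, and ran from -0.54 to 0.047 over single libraries. The Srebf1 interaction became -0.13 with limma voom, -0.066 with upper-quartile scaling, -0.014 with a mean count of at least 50, -0.026 with the replicate block and -0.037 without LKO chow libraries 1 and 2, and ran from -0.20 to 0.19 over single libraries. The Srebf2 genotype value on HFD ran from -0.046 to 0.014, and the Scap value on chow from -0.23 to 0.010. For Stard4 the LKO diet value became 0.022 with limma voom and 0.094 without LKO chow libraries 1 and 2, and ran from -0.12 to 0.011. Of all values of the 8 genes under an alternative, 683 kept direction and side of the threshold, 47 lost a call, 19 gained one and 35 turned direction. Most of the 683 belong to comparisons that the reported fit did not call. On chow the genotype call was lost for Npc1 in 14, for Insig1 in 10 and for Insig2 in 6 of 19 alternatives. The Srebf1 diet call was lost in 8 of 17 in WT and in 9 of 19 in LKO. The calls of Srebf2, Scap and Stard4 were lost in none. Each of the 8 had 93.9 or more counts in every library. How much of the imprecision came from counting noise and how much from spread between libraries was not tested.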
